A study of Mus musculus with 54 samples.

Results

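The 8 genes of the E2F transcription factor family (E2f1 to E2f8), the dimerization partner gene Tfdp1 and the retinoblastoma gene Rb1 were followed through mouse peritoneal macrophages that had been polarized and then reprogrammed with small interfering RNA (siRNA). These 10 genes were taken by their symbols, out of 39179 gene identifiers with a count in each of the 54 RNA sequencing libraries, and all 10 were found. The proteins E2F1 to E2F6 bind DNA as dimers with a DP protein such as the product of Tfdp1. E2F1, E2F2 and E2F3 are known as activators of the genes for DNA replication, E2F4 and E2F5 as repressors that work with the pocket proteins, and E2F6, E2F7 and E2F8 as repressors that need no pocket protein. RB, the product of Rb1, is a pocket protein that holds the activators silent until cyclin-dependent kinases phosphorylate it, and macrophages in culture are mostly outside the cell cycle.

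All macrophages came from C57BL/6 mice aged 8 to 20 weeks and were collected from the peritoneum after injection of thioglycolate, an irritant that draws cells into the cavity. In the polarization experiment, cells of 3 mice were left untreated (M0) or treated for 24 h with 100 ng/ml lipopolysaccharide (LPS) and 50 ng/ml interferon-γ (M1-like) or with 10 ng/ml interleukin 4 (M2-like), and each mouse and condition gave 1 sample, the sum of 2 technical replicates. In the reprogramming experiment, with 12 conditions of 3 samples, M2-like cells were transfected after 24 h of interleukin 4 with siRNA pools against E2f1, Myc, Pparg or Stat6, with all 4 pools combined, with a negative siRNA pool or with the transfection reagent alone (mock), and RNA was sequenced 48 h after transfection. Untransfected M0, M1-like and M2-like cells and mock-treated M0 and M1-like cells completed the set. The culture after transfection had no interleukin 4. The study's methods give 24 h of polarization for cells sequenced without transfection, and the labels of the untransfected cells in the reprogramming experiment state no other time.

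Samples held 39577911 to 59443987 counted reads in the polarization and 13421854 to 19704195 in the reprogramming experiment. Replicate 1 of the polarization M2-like cells had the fewest reads of its experiment and stood apart from the other M2-like samples there. Its chi-square per gene, which compares counts after allowing for depth, was 87.35 against replicate 2 and 96.59 against replicate 3. Between replicates 2 and 3 it was 5.931. The 8 macrophage marker genes summed to between 6448 and 18410 CPM in every sample (CPM is the read count of a gene relative to the TMM-scaled library size), and the 7 lymphocyte genes to at most 34.4 CPM and the 8 granulocyte and mast cell genes to at most 4.46 CPM. The 7 mesothelial and fibroblast genes reached 19.7 CPM in the polarization and 268 CPM in the reprogramming experiment. In these bulk samples, fewer cells of a type and less RNA per cell cannot be told apart. Replicates are separate samples by their labels. The polarization samples came from 3 mice, but no source says that the 3 reprogramming samples of a condition came from separate animals, so p-values there measure only the spread between these samples.

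E2F genes are themselves known targets of E2F proteins, so the promoters of the 10 genes were searched for the E2F site on both strands, written as TTTCCCGC, TTTCGCGC, TTTGCCGC or TTTGGCGC. RefSeq windows of 300 bases (250 before to 50 after the start, GRCm38.p6) were at hand for 7 of the 10 genes. Of these 7, E2f2, E2f3, E2f7 and Tfdp1 held a match, E2f1, E2f6 and E2f8 did not, and E2f4, E2f5 and Rb1 had no window. Over all 32851 windows of the table, 2.26% held one, and 2.605% of the 27025 genes had one in any window. The window of E2f1 (chr2:154569377-154569676) lies inside the gene as GENCODE annotates it, so it does not cover the upstream start. The 4 members with a match are shown by 30 bases on the strand of the gene, with the match in capitals. The E2f2 match starts 39 bases downstream of the RefSeq start (chr4:136172294-136172323, plus strand). This window ends upstream of the gene as GENCODE annotates it (start at 136172394). Another window of E2f2 and another of E2f3 held no match. The E2f3 match starts 11 bases upstream (chr13:29986056-29986085, minus strand), that of E2f7 198 bases upstream (chr10:110745230-110745259, plus strand) and that of Tfdp1 43 bases upstream (chr8:13338697-13338726, plus strand). From another RefSeq start of Tfdp1 the same match lies 96 bases upstream.
E2f2: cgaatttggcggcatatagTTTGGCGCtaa
E2f3: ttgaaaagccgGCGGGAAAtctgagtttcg
E2f7: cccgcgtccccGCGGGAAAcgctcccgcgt
Tfdp1: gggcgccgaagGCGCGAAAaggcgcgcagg

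E2f4 was the most abundant member in all 15 conditions and E2f7 was close to absent. Levels between genes were compared as CPM per kilobase of merged exons. In M2-like macrophages treated with the negative siRNA pool, the reference of all knockdowns, the level of E2f4 was 18.3 ± 1.32 CPM per kb (SD, n = 3). It was followed by Rb1 with 6.40 ± 0.249, E2f1 with 6.36 ± 0.782 and Tfdp1 with 6.21 ± 0.0798 CPM per kb, and the samples of these neighbours overlapped. E2f5 (4.44 ± 0.583) and E2f6 (4.10 ± 0.171), which overlapped each other, and E2f3 (3.57 ± 0.284) came next. E2f8 with 1.28 ± 0.0769 and E2f2 with 0.973 ± 0.156 CPM per kb lay below all of these and were ranked 8 or 9 in each condition. E2f7 had 230 reads over all libraries of the series and 6, 5 and 10 reads in the 3 samples of this condition. As a scale, the median level per kb of the tested genes was 4.59 CPM per kb over the reprogramming samples, and 81.9% of these genes lay below E2f4, 61.0% below E2f1 and 27.3% below E2f8.

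**Figure D1:**
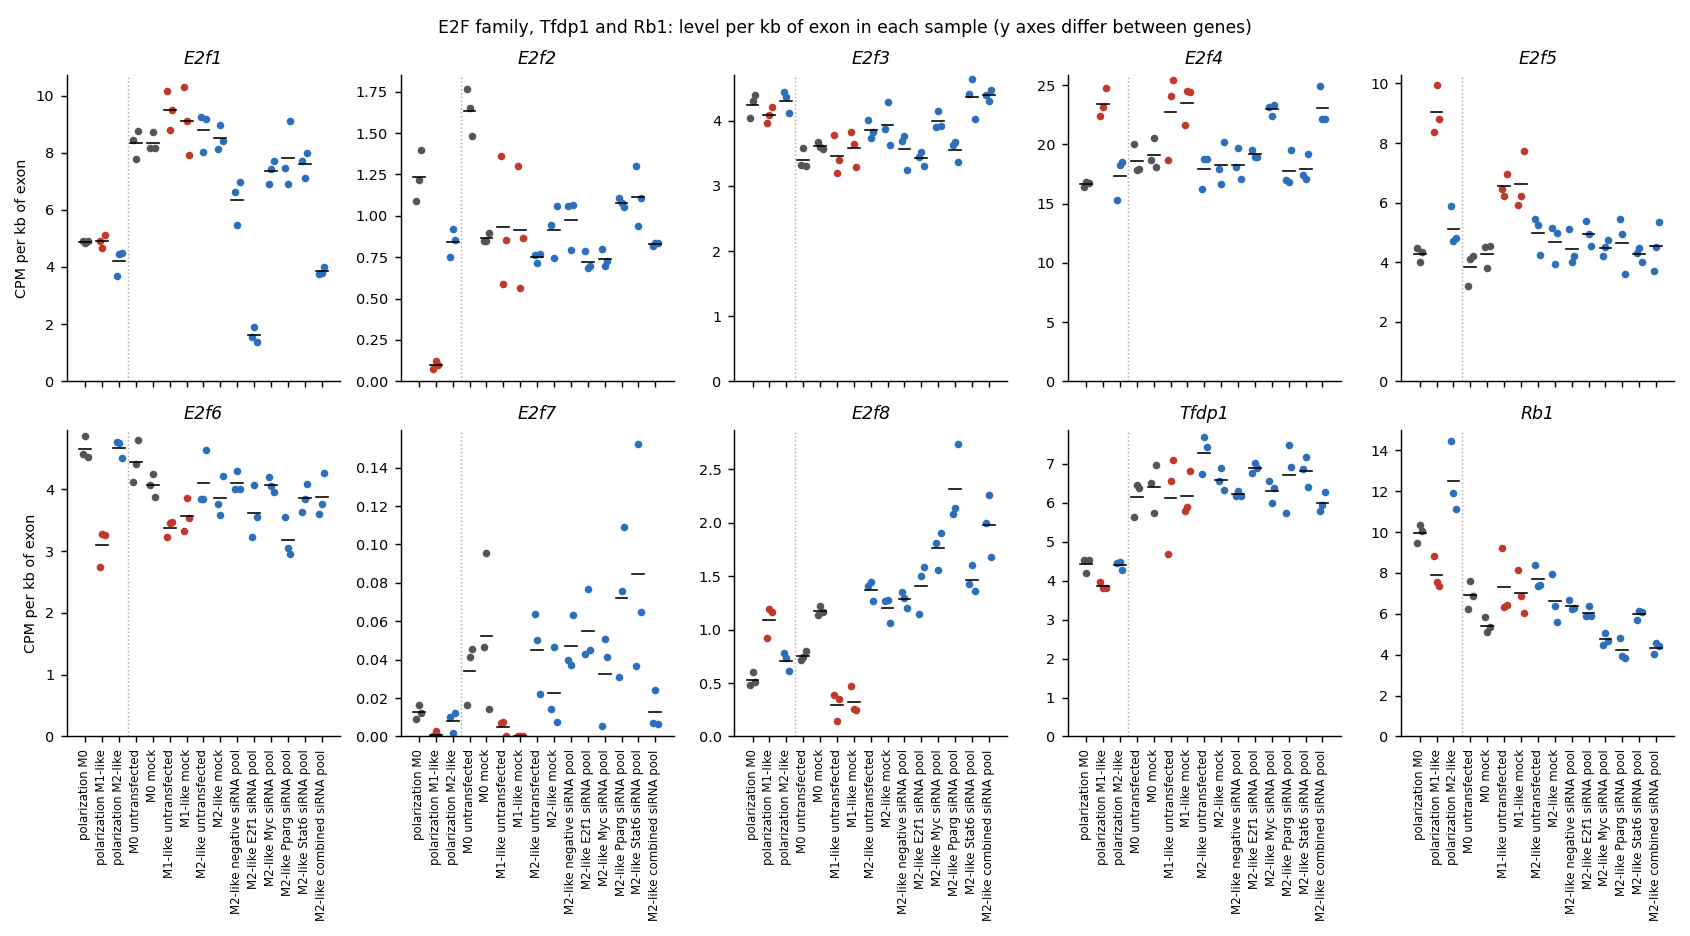
Level of each member in every sample as CPM per kb of merged exons (y axis, from 0, scaled per gene) over the 15 conditions (x axis, the polarization samples left of the dotted line). Points are samples, short lines the mean of 3, with M0 in grey, M1-like in red and M2-like in blue; E2f1 is lowest with the E2f1 siRNA pool, E2f2 is lowest in M1-like cells of the polarization experiment, and E2f8 is lowest in M1-like cells of the reprogramming experiment.

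The siRNA pool against E2f1 reduced E2f1, and no other member was called. E2f1 (ENSMUSG00000027490) lies at chr2:154559407-154569892 on the minus strand (GRCm38) and has 7 merged exons. With the negative siRNA pool, E2f1 was at 20.9, 17.3 and 22.0 CPM in the 3 samples. With the E2f1 siRNA pool it was at 4.88, 5.94 and 4.34 CPM, so the groups did not overlap. The remaining level was 25.2 ± 4.05% of the negative pool (SD, n = 3), and the log2 fold change was -1.98 (SE 0.12, adjusted p = 1.3e-12, edgeR's quasi-likelihood test with Benjamini-Hochberg adjustment over 14172 genes). Against mock-treated cells, in which E2f1 was at 25.7, 28.3 and 26.5 CPM, the remaining level was 18.9 ± 3.03% and the log2 fold change -2.40 (SE 0.12). After the knockdown E2f1 was still expressed at 1.60 ± 0.258 CPM per kb, which overlapped the samples of E2f8. Of all genes tested, 0.91% passed the adjusted p of 0.05 in this comparison (129 of 14172), against 1 of the 10 members.

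**Figure D2:**
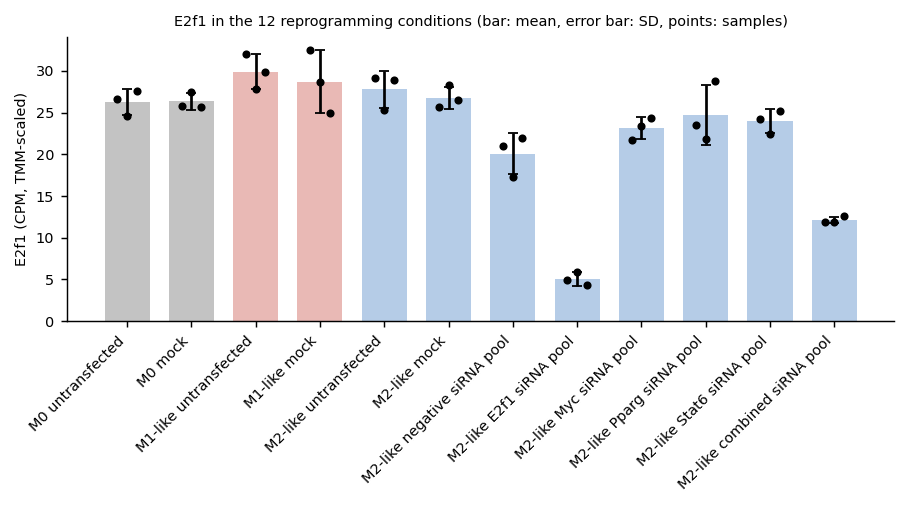
E2f1 in CPM (y axis, from 0) in the 12 reprogramming conditions (x axis). Bars give the mean, error bars the SD of 3 samples and points the samples; the E2f1 siRNA pool sits between 4.34 and 5.94 CPM, the combined pool between 11.9 and 12.6 CPM, and every other sample at 17.3 CPM or above.

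None of the other 9 members was called after the E2f1 knockdown by edgeR or by DESeq2, which gave no adjusted p for E2f7, and none of them had an unadjusted p under 0.05. For the activators, the log2 difference was -0.43 (95% interval -0.90 to 0.03) for E2f2 and -0.06 (-0.22 to 0.10) for E2f3. For E2f4 it was 0.07 (-0.12 to 0.26), for E2f5 0.16 (-0.15 to 0.46) and for E2f6 -0.18 (-0.37 to 0.01). E2f8, a known target of E2F1 in cycling cells, differed by 0.14 (-0.22 to 0.50). The dimer partner Tfdp1 differed by 0.15 (-0.07 to 0.37) and Rb1 by -0.08 (-0.33 to 0.17). Their adjusted p-values were between 0.51 and 0.95. E2f6 had the lowest adjusted p (0.51), close to that of E2f2. E2f6 was at 18.2, 23.0 and 20.1 CPM with the E2f1 pool and at 22.7, 24.35 and 22.65 CPM with the negative pool, with overlap. E2f2 had the largest log2 difference of these 9. It was at 5.18, 3.87 and 5.21 CPM with the negative pool and at 3.85, 3.35 and 3.39 CPM with the E2f1 pool. These samples did not overlap, although the nearest of both groups almost touched. Mock-treated cells, at 3.65 to 5.16 CPM, did overlap the E2f1 pool. With mock as reference the log2 fold change of E2f2 was -0.34 (edgeR, adjusted p = 0.40). E2f7 with 24 reads in the E2f1 pool samples and 21 in the negative pool samples was too sparse to place, with an interval of -1.07 to 1.53.

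The genes that E2F proteins are known to drive at the entry into S phase were not called either. Of 30 such G1/S genes, which encode replication factors such as the Mcm helicase subunits, nucleotide enzymes such as Rrm2 and Tyms, and cyclin A2 (Ccna2), 0 of 30 passed with edgeR, beside 0.91% of all genes, so the count is near the share over all genes. Of the 30, 3 had an unadjusted p under 0.05. DESeq2 called 1, Dnmt1, the maintenance DNA methyltransferase, which also passed when only both compared conditions entered the model. The median log2 fold change of the 30 genes was -0.07, beside 0.00054 over all genes tested. The lowest value was that of Ccna2 with -0.59 (adjusted p = 0.50). Among the other lists 0 genes were called: 9 pocket protein and partner genes, 8 G1 cyclin and kinase genes, 7 kinase inhibitor genes, 8 tested apoptosis genes and 10 genes of G2 and mitosis. The G2 and mitosis genes summed to 45.6 to 48.1 CPM with the negative pool and to 34.0 to 40.9 CPM with the E2f1 pool. Their median log2 fold change between these pools was -0.34. In mock-treated M2-like cells they summed to 35.8 to 54.4 CPM, which overlapped both pools. With mock-treated cells as the reference 3 of the 30 G1/S genes were called, Dnmt1, Pcna and Prim1, of which 2 were higher and 1 lower, while the share of all genes called as higher or lower rose to 6.31% and 5.32%. E2F sites were found in the promoter windows of 13 of the 26 G1/S genes that had a window, beside 2.605% of all genes with a window. These 13 were Mcm3, Mcm5, Mcm6, Mcm7, Cdc6, Cdt1, Orc1, Pola1, Lig1, Cdc25a, Ezh2, Dnmt1 and Uhrf1.

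**Figure D3:**
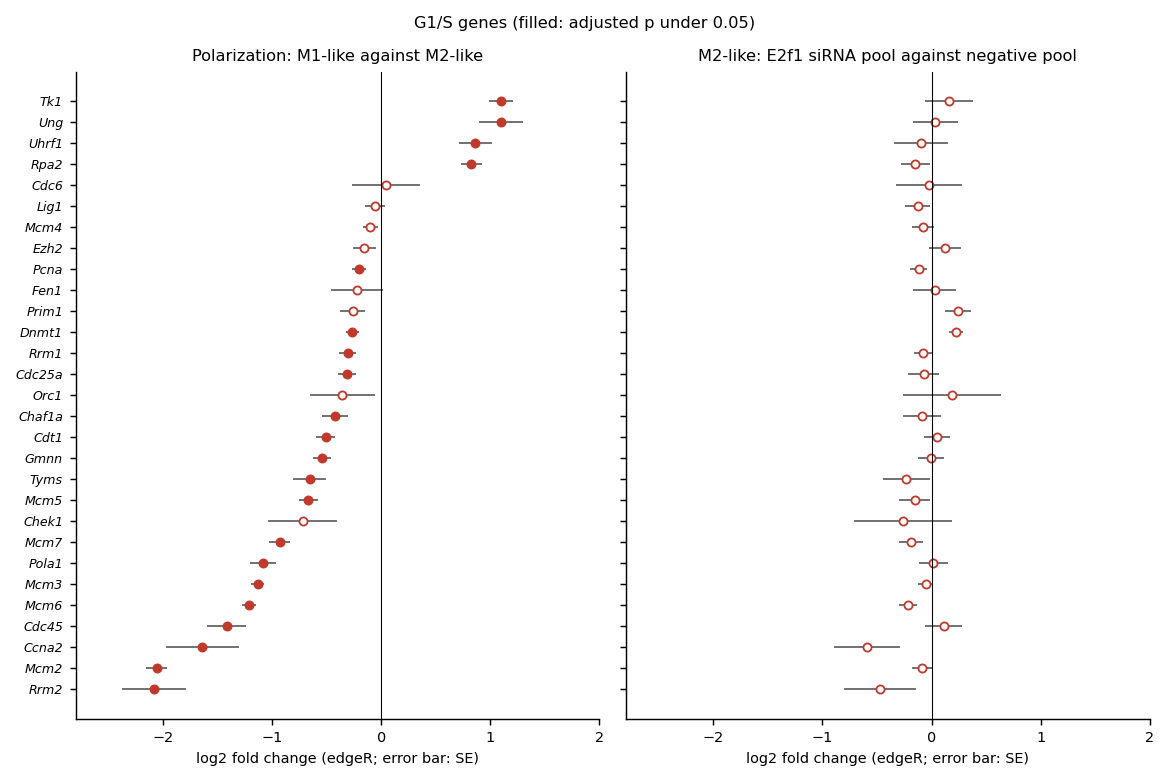
Log2 fold change (x axis, error bars SE, n = 3 per condition) of 29 of the 30 G1/S genes (y axis) between M1-like and M2-like cells of the polarization experiment (left, positive where M1-like is higher) and for the E2f1 siRNA pool against the negative pool (right). Filled points passed an adjusted p of 0.05: 21 of 29 on the left, 0 of 29 on the right.

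The negative siRNA pool by itself was accompanied by a lower E2f1. E2f1 was at 20.9, 17.3 and 22.0 CPM with the negative pool against 25.7, 28.3 and 26.5 CPM in mock-treated M2-like cells, without overlap. The log2 fold change was -0.42 (SE 0.11, adjusted p = 0.0072), and E2f1 was the only one of the 10 members called, beside 11.7% of all genes tested. The call was lost without replicate 2 of the negative pool, the lowest of the 3 (log2 fold change -0.32, adjusted p = 0.076). E2f1 was at 21.8 to 24.3 CPM with the Myc pool, at 21.8 to 28.8 CPM with the Pparg pool and at 22.45 to 25.2 CPM with the Stat6 pool. The Myc and Pparg pools overlapped the negative pool samples, the Pparg pool also the mock samples, and the Stat6 pool lay between both. Over the whole series, E2f1 was at 11.6 to 16.1 CPM in the samples of the polarization experiment and at 17.3 to 32.5 CPM in the reprogramming samples that had no siRNA against it. The 2 experiments were normalized separately.

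The combined pool lowered E2f1 less than the E2f1 pool alone. E2f1 was at 11.9, 11.9 and 12.6 CPM in the 3 samples of the combined pool, all above the E2f1 pool samples and all below the negative pool samples. That was 60.4 ± 2.01% of the negative pool (SD, n = 3), with a log2 fold change of -0.73 (SE 0.11, adjusted p = 7.9e-06). Set directly against the E2f1 pool, E2f1 was higher by 1.25 (SE 0.13, adjusted p = 1.3e-08). For the other targets, the remaining level in the combined pool was 39.6 ± 3.196% for Myc (38.0 ± 8.01% in its own pool), 28.3 ± 2.25% for Pparg (21.9 ± 2.58%) and 54.0 ± 4.82% for Stat6 (27.3 ± 5.79%).

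In the combined pool 5 of the 10 members were called against the negative pool, beside 26.5% of all genes tested. Apart from E2f1 these were Rb1, which was lower, and E2f3, E2f4 and E2f8, which were higher. Rb1 was at 24.4, 27.5 and 26.5 CPM with the combined pool and at 40.2, 37.5 and 37.8 CPM with the negative pool, with a log2 fold change of -0.56 (SE 0.12, adjusted p = 0.0011). Rb1 shares 488 exon bases with Rcbtb2 and 408 with Lpar6 on the opposite strand, and the strand setting of the read counting is not given in the sources used here, so some of its reads could belong to these genes. E2f8 was at 10.9, 12.3 and 9.12 CPM against 7.34, 7.07 and 6.52 CPM, a rise of 0.63 (SE 0.17, adjusted p = 0.0066) that was lost without combined pool replicate 2 (log2 fold change 0.52, adjusted p = 0.051). E2f4 rose by 0.34 (SE 0.09, adjusted p = 0.0064). E2f3 rose by 0.30 (SE 0.08, adjusted p = 0.0045), a call that was lost without negative pool replicate 3 (log2 fold change 0.23), without a filter on low counts, and with mock as reference (0.16, adjusted p = 0.11). With total counts in place of TMM scaling the median over all genes moved from 0.01 to 0.14 and the called genes from 12.55% higher and 13.9% lower to 25.1% higher and 8.06% lower, while 3 members stayed higher and 2 lower. Of the 30 G1/S genes, 7 were lower and 1 higher with the combined pool, among them Pcna, the sliding clamp of replication, with -0.64 and Mcm5 with -0.53. With total counts 4 were lower and 3 higher. With the Myc pool, which held no siRNA against E2f1, 10 of the 30 were lower and 2 higher, beside 15.6% and 13.9% of all genes. With the Pparg pool 0 were lower and 1 higher, beside 3.03% and 2.71% of all genes. The part of each siRNA in the G1/S calls of the combined pool was not tested. E2f7 had 6 reads with the combined pool against 21 with the negative pool and was not called (adjusted p = 0.11).

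Against the E2f1 pool, 5 of the 10 members differed in the combined pool, beside 21.6% of all genes. Besides E2f1, E2f3 was higher by 0.36 (SE 0.08, adjusted p = 0.0011) and Rb1 lower by 0.48 (SE 0.13, adjusted p = 0.0053). E2f4 (0.27, adjusted p = 0.034) and E2f8 (0.49, adjusted p = 0.038) were also higher. Both of these calls were lost without replicate 1 of the combined pool and without replicate 1 or 2 of the E2f1 pool, that of E2f4 also without E2f1 pool replicate 3 and that of E2f8 also without combined pool replicate 2, with log2 fold changes of 0.21 to 0.30 for E2f4 and 0.36 to 0.59 for E2f8 over the fits that left out 1 sample.

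Rb1 and E2f8 were also called with the single pools against Myc and Pparg. These comparisons and that of the combined pool share their negative pool samples, so each is given by its own values. With the Myc pool 3 of 10 members were called, beside 29.6% of all genes. Rb1 was at 27.0, 30.5 and 28.1 CPM, below all negative pool samples (log2 fold change -0.43, SE 0.12, adjusted p = 0.0082), a call that was lost with total counts (-0.30, adjusted p = 0.062). With total counts E2f1 (0.34, adjusted p = 0.011) and E2f3 (0.30, adjusted p = 0.0052) were called as higher. E2f4 was higher by 0.33 (SE 0.09, adjusted p = 0.0063). E2f8 was at 9.87, 8.49 and 10.4 CPM, higher by 0.45 (SE 0.17, adjusted p = 0.044), and this call was lost in 5 of the 6 fits that left out 1 sample, all but the one without Myc pool replicate 2 (log2 fold change 0.40 to 0.53). With the Pparg pool 3 of 10 members were called, beside 5.74% of all genes. E2f8 reached its highest mean of the series at 11.3, 11.6 and 14.9 CPM, above all negative pool samples and higher by 0.85 (SE 0.17, adjusted p = 0.0017). Rb1 was at 29.1, 23.7 and 23.2 CPM, again below all negative pool samples, with a log2 fold change of -0.61 (SE 0.13, adjusted p = 0.0024). E2f6 was lower at -0.36 (SE 0.10, adjusted p = 0.017), a call lost without Pparg pool replicate 2 or 3 or negative pool replicate 2 (log2 fold change -0.45 to -0.32).

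With the Stat6 pool 0 of 10 members were called by edgeR, beside 1.51% of all genes. E2f3 came nearest with a log2 fold change of 0.29 (SE 0.08, adjusted p = 0.055), at 23.96, 25.2 and 21.9 CPM against 20.04, 20.5 and 17.6 CPM with the negative pool, without overlap. In all, 2 members had an unadjusted p under 0.05. DESeq2 called 1, also E2f3, and the fit without Stat6 pool replicate 3 called 1.

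**Figure D4:**
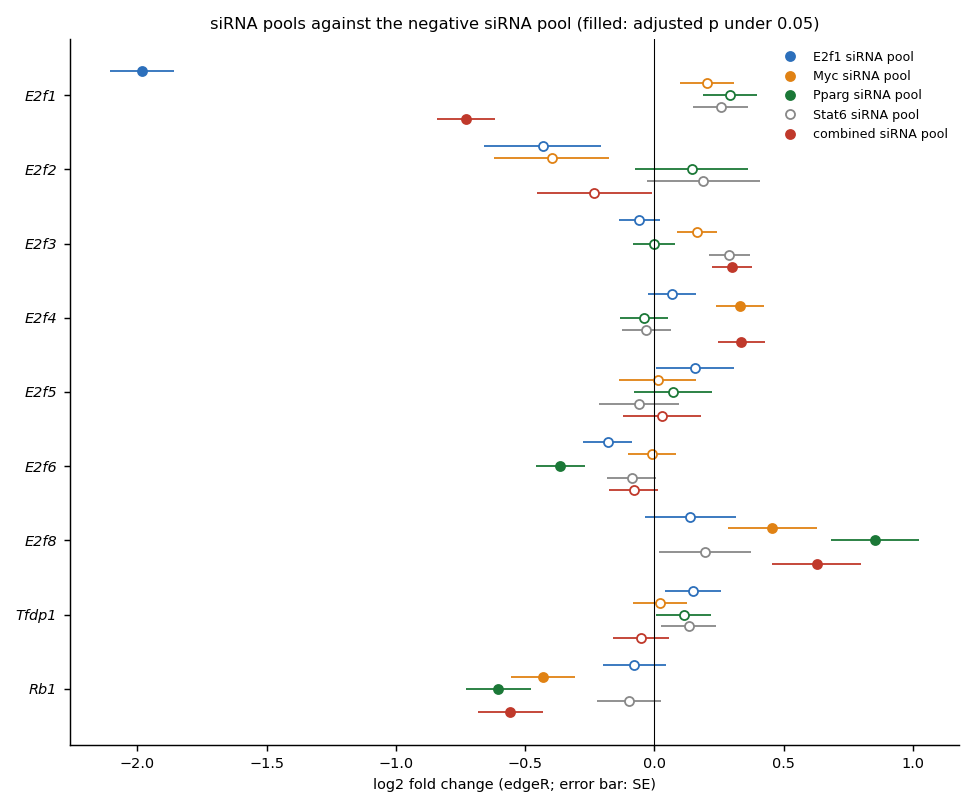
Log2 fold change (x axis, error bars SE, n = 3 per condition) of 9 members (y axis) for 5 siRNA pools against the negative siRNA pool in M2-like cells. Filled points passed an adjusted p of 0.05; E2f7 is left out for its few reads, and the E2f1 pool has 1 filled point, E2f1 itself, while Rb1 is lower and E2f8 higher with the Myc, Pparg and combined pools.

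In the polarization experiment, M1-like cells differed from M2-like cells in 8 of the 9 members tested, beside 72.6% of all genes, 4 of them higher and 4 lower in the M1-like cells. E2f2 showed the largest difference of the 9 members tested. It was at 5.32, 5.93 and 6.82 CPM in M0, at 3.66, 4.51 and 4.17 CPM in M2-like and at 0.351, 0.588 and 0.479 CPM in M1-like cells, which is 13 to 23 reads a sample there, and the M1-like samples lay far below all others. The log2 fold change against M2-like cells was -3.11 (SE 0.19, adjusted p = 1.6e-08). The level order of the activators in M1-like cells was E2f1 (4.90 ± 0.228 CPM per kb), E2f3 (4.10 ± 0.124) and E2f2 (0.0968 ± 0.0242), without overlap.

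Among the repressors, E2f5 was at 14.9, 17.8 and 15.7 CPM in M1-like and at 10.5, 8.38 and 8.56 CPM in M2-like cells, without overlap and higher by 0.82 (SE 0.10, adjusted p = 1.4e-05). E2f6 was at 15.5, 18.5 and 18.5 CPM in M1-like and at 27.0, 26.9 and 25.5 CPM in M2-like cells, a log2 fold change of -0.59 (SE 0.08, adjusted p = 2.2e-05). Rb1 was at 53.0, 45.4 and 44.3 CPM against 87.1, 71.5 and 66.9 CPM, a log2 fold change of -0.66 (SE 0.10, adjusted p = 7.1e-05). Both genes were lower in every M1-like sample than in any M2-like sample. E2f8 was higher by 0.63 (SE 0.14, adjusted p = 0.0014) and E2f4 by 0.43 (SE 0.07, adjusted p = 0.00023). E2f1 (0.22, SE 0.08, adjusted p = 0.034) and Tfdp1 (-0.19, SE 0.06, adjusted p = 0.020) differed little. The E2f1 call was lost without M1-like replicate 1 or 3 or M2-like replicate 1 (0.13 to 0.26 over the fits without 1 sample), without a filter on low counts and with only the compared conditions. That of Tfdp1 was lost without M1-like replicate 2 or 3 or M2-like replicate 2 (-0.21 to -0.17), with RLE scaling, with DESeq2, without a filter and with only the compared conditions. E2f3 did not pass, with -0.07 (95% interval -0.21 to 0.07). These values depend on the scaling. With total counts in place of TMM scaling, the median over all genes moved from -0.06 to -0.49 and the called genes from 34.6% higher and 38.1% lower to 20% higher and 60.8% lower. E2f1 then came to the other side of 0 and was called as lower in M1-like cells (-0.22, adjusted p = 0.034). E2f4 came to -0.01, also on the other side of 0, and E2f8 to 0.20 (adjusted p = 0.22), and neither was called. E2f2, E2f5, E2f6, Tfdp1 and Rb1 kept their direction and call, and E2f3 was called as lower. E2f7, too sparse for the test in this experiment, had 1 read in M1-like, 11 in M2-like and 18 in M0 samples, a ratio of 8.82 between M2-like and M1-like cells (95% counting interval 1.28 to 379.7). Without M1-like replicate 3 the ratio was 5.41, and without M1-like replicate 2, which held the only read, E2f7 was at least 2.01-fold lower in M1-like cells.

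Against M0, the M1-like cells differed in 7 of 9 members tested, beside 72.9% of all genes. E2f2 was lower by -3.66 (SE 0.18, adjusted p = 2.8e-09), E2f5 higher by 1.08 (SE 0.10, adjusted p = 1.3e-06) and E2f8 higher by 1.04 (SE 0.14, adjusted p = 3e-05), at 4.999, 6.51 and 6.33 CPM against 2.64, 3.26 and 2.76 CPM. E2f6 (-0.59) and Rb1 (-0.33) were lower and E2f4 (0.49) higher. With total counts the median over all genes moved from -0.04 to -0.46, the called genes moved from 35.4% higher and 37.5% lower to 20.02% higher and 59.2% lower, and E2f4 no longer passed (0.06). Tfdp1 (-0.19, adjusted p = 0.018) lost its call without M0 replicate 1 or 3 or M1-like replicate 2 or 3 (-0.23 to -0.15), without a filter and with DESeq2. E2f1 differed by 0.0042 (95% interval -0.18 to 0.19) and E2f3 by -0.05, but with total counts both were called as lower, E2f1 with -0.42 (adjusted p = 0.00067) and E2f3 with -0.48 (adjusted p = 2.5e-05). M2-like cells differed from M0 in 2 of 9 members, beside 27.9% of all genes: E2f2 was lower by -0.55 (SE 0.14, adjusted p = 0.012) and Rb1 higher by 0.33 (SE 0.10, adjusted p = 0.027). The first was lost without M0 replicate 3 (-0.62 to -0.45 over the fits without 1 sample) and the second without any 1 of the 3 M0 samples or M2-like replicate 1 (0.21 to 0.41). No member was called in the fit without M0 replicate 3.

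The genes that act around these factors were also compared between M1-like and M2-like cells of the polarization experiment. Of 30 G1/S genes 17 were lower and 4 higher when M1-like cells were compared to M2-like ones, beside 38.1% of all genes lower and 34.6% higher, with a median of -0.34 beside -0.06 over all genes. Largest in size were Rrm2 (-2.08), a subunit of ribonucleotide reductase, Mcm2 (-2.06), Ccna2 (-1.64) and Cdc45 (-1.42), a partner of the Mcm helicase. With total counts 25 were lower and 4 higher, beside 60.8% and 20% of all genes. All 8 G1 cyclin and kinase genes differed, 6 higher and 2 lower, with Ccnd2 (4.97), Ccne1 (3.67), Ccnd3 (2.33) and Ccnd1 (1.73) at the top. Of the 7 kinase inhibitor genes 3 were higher and 2 lower, with Cdkn1a, which encodes p21, at 3.52, Cdkn2c at -2.55, Cdkn1c at -2.08 and Cdkn2d at 1.76. Of the 9 pocket protein and partner genes 4 were higher and 2 lower, among them Rbl1 (2.11), which encodes p107, Tfdp2 (-1.78), Lin54 (0.92) and Lin9 (0.84). Rbl2, which encodes p130, was lower at -0.57. Of 8 tested apoptosis genes 6 were higher and 2 lower, among them Bcl2l11 (-2.01) and Pmaip1 (1.502), which encode proteins that promote cell death. Of the 10 genes of G2 and mitosis 4 were lower and 1 higher, with Top2a (-2.79), Aurkb (-1.82), Cdc20 (-1.20) and Mki67 (1.20), and their sum was 16.9 to 19.2 CPM in M1-like and 16.4 to 21.2 CPM in M2-like cells.

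In the reprogramming experiment, with TMM scaling, E2f8 ran the other way between M1-like and M2-like cells and E2f2 was not called. E2f4 and E2f5 were higher in M1-like cells here too. The 2 experiments differ in read layout. The mock-treated cells here were also sequenced 48 h after transfection, while the polarization cells had 24 h of treatment. The experiments were fitted apart, and the difference between them was not tested. Untransfected M1-like cells differed from untransfected M2-like cells in 6 of 10 members, beside 61.5% of all genes, and mock-treated ones in 4 of 10, beside 60.7%. E2f8, which was higher in M1-like than M2-like cells of the polarization experiment, was here the most reduced of the well-covered members. It was at 2.14, 0.803 and 1.89 CPM in untransfected M1-like cells against 7.66, 7.86 and 6.88 CPM in M2-like cells, a log2 fold change of -2.19 (SE 0.22, adjusted p = 2.4e-10). In mock-treated cells it was at 2.56, 1.42 and 1.34 CPM against 6.92, 6.94 and 5.79 CPM, with a log2 fold change of -1.88 (SE 0.21, adjusted p = 3.9e-09). E2f8 shares 610 exon bases with Gm2788 on the opposite strand, which had 178 reads over all libraries against 5832 of E2f8.

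E2f7, the close relative of E2f8, had 1, 1 and 0 reads in untransfected and 0 reads in all 3 mock-treated M1-like samples. Pooled over the samples, it was 9.52 times higher in untransfected M2-like than M1-like cells (95% counting interval 2.28 to 84.6, from 18 and 2 reads) and at least 3.80-fold lower in mock-treated M1-like than M2-like cells (9 reads, against a floor of 3 counts over the group). Leaving out 1 sample moved the ratio to between 6.32 (without M1-like replicate 3) and 13, and the bound to between 1.87 (without M2-like replicate 2) and 4.996, with 2.42 without M1-like replicate 2. Its fitted call against M2-like cells was lost without M1-like replicate 3 in untransfected cells (adjusted p = 0.051) and without M2-like replicate 2 in mock-treated cells (adjusted p = 0.082).

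E2f4 was higher in the M1-like cells of the reprogramming experiment by 0.34 (SE 0.09, adjusted p = 0.0019) without and by 0.37 (SE 0.09, adjusted p = 0.00096) with mock treatment, and E2f5 by 0.40 (SE 0.15, adjusted p = 0.020) and 0.50 (SE 0.15, adjusted p = 0.0041). In untransfected cells the call of E2f5 was lost without M1-like or M2-like replicate 3 (0.29 to 0.47) and with only the compared conditions. E2f6 (-0.28, adjusted p = 0.012) and Tfdp1 (-0.25, adjusted p = 0.040) were lower in untransfected M1-like cells, E2f6 not without M2-like replicate 3 (-0.33 to -0.19) and Tfdp1 not without M1-like replicate 1 or M2-like replicate 2 or 3 (-0.38 to -0.09), without a filter and with only the compared conditions. Without M2-like replicate 3, as with only the compared conditions, 3 of 10 members were called there. E2f2 was at 6.65, 2.88 and 4.16 CPM in untransfected M1-like cells and at 3.72, 3.48 and 3.77 CPM in M2-like cells. These samples overlapped, and the difference was 0.33 (95% interval -0.14 to 0.80). E2f1 differed by 0.11 (-0.10 to 0.32) in untransfected and by 0.10 (-0.11 to 0.31) in mock-treated cells. With total counts the median over all genes moved from 0.03 to 0.22 and 0.25, and the called genes from 31.25% higher and 30.2% lower to 43.75% and 22.0% in untransfected and from 30.9% and 29.8% to 45.8% and 21.01% in mock-treated cells. E2f1 then passed with 0.30 and 0.32 as higher, E2f2 passed with 0.52 in untransfected cells and Rb1 in mock-treated cells, while E2f6 and Tfdp1 no longer passed in untransfected cells.

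Marker genes of other cell types were lower in the same M1-like cells. The mesothelial and fibroblast genes summed to 20.6 to 63.5 CPM in untransfected M1-like cells against 64.5 to 249 CPM in M2-like cells. With mock treatment they summed to 11.8 to 25.4 CPM against 96.9 to 164 CPM. In that comparison 6 of 6 tested genes were lower, beside 29.8% of all genes. All 4 tested lymphocyte genes were lower too, in untransfected cells beside 30.2% of all genes. Their list summed to 0.733 to 1.47 CPM in untransfected M1-like and 6.80 to 13.9 CPM in M2-like cells. The G2 and mitosis genes summed to 19.7 to 35.4 CPM and 36.5 to 62.0 CPM in the same samples. Of these 10 genes, 6 were lower and 0 higher, beside 30.2% of all genes lower and 31.3% higher. The T cell genes Cd3e and Cd3g were at 0 in 28 of the 36 reprogramming samples each. The macrophage genes summed to 6955 to 8096 CPM in untransfected M1-like and 16030 to 18410 CPM in M2-like cells. Of these 8 genes, 5 were lower and 1 higher. The part of these other cells and of the G2 and mitosis genes in the lower E2f8 and E2f7 was not tested.

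**Figure D5:**
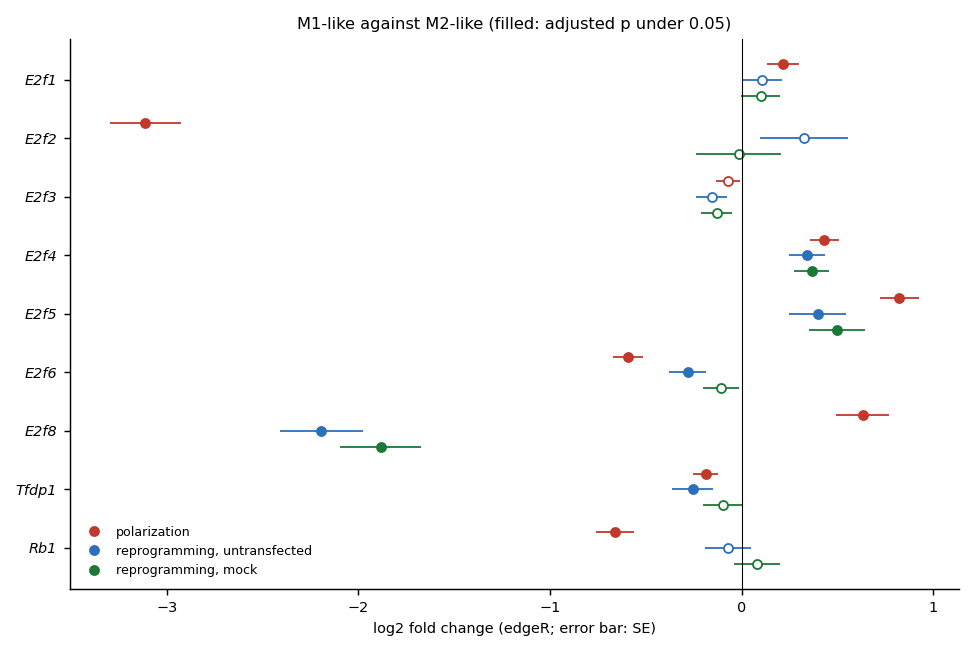
Difference between M1-like and M2-like cells as log2 fold change (x axis, positive where M1-like is higher, error bars SE, n = 3 per condition) for 9 members (y axis) in the polarization experiment and in untransfected and mock-treated cells of the reprogramming experiment. Filled points passed an adjusted p of 0.05; E2f2 has a filled point in the polarization experiment alone, E2f8 lies right of 0 there and left of 0 in both comparisons of the reprogramming experiment, and with total counts E2f1 and E2f4 in the polarization experiment fall left of 0.

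The mock-treated M1-like cells differed from mock-treated M0 cells in 5 of 10 members, beside 60.4% of all genes. E2f8 was lower by -1.85 (SE 0.21, adjusted p = 5.6e-09) and E2f7 at least 9.29-fold lower (24 reads in M0, of which 16 came from replicate 2), while E2f5 (0.63, SE 0.15, adjusted p = 0.00046), E2f4 (0.30, SE 0.09, adjusted p = 0.0056) and Rb1 (0.37, SE 0.12, adjusted p = 0.0097) were higher. Without M0 mock replicate 2 the bound for E2f7 was 5.05-fold and without M1-like mock replicate 2 it was 5.91-fold. The Rb1 call was lost without M1-like mock replicate 1 (0.25, adjusted p = 0.10). With total counts E2f1 (0.34, adjusted p = 0.0043) and E2f3 (0.20, adjusted p = 0.034) were also called as higher. Mock-treated M2-like cells differed from mock-treated M0 cells in 0 of 10 members by edgeR and by DESeq2, beside 3.83% of all genes, and 1 member had an unadjusted p under 0.05. For E2f1 the interval of that difference was -0.19 to 0.23 and for E2f8 -0.34 to 0.41.

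Mock-treated M0 cells differed from untransfected M0 cells in some of these genes. Mock-treated cells were sequenced 48 h after transfection, while the methods give untransfected cells 24 h of polarization. Reagent and time in culture therefore cannot be told apart, in M0 cells or in the M1-like, M2-like and interaction comparisons below. Between mock-treated and untransfected M0 cells, 3 of 10 members were called, beside 20.4% of all genes. E2f2 was at 8.64, 8.07 and 7.23 CPM in untransfected and at 4.14, 4.14 and 4.38 CPM in mock-treated M0 cells, a log2 fold change of -0.92 (SE 0.22, adjusted p = 0.0021). E2f8 was at 3.88, 4.03 and 4.37 CPM and at 6.17, 6.66 and 6.34 CPM, higher by 0.64 (SE 0.19, adjusted p = 0.016). Rb1 was lower by -0.35 (SE 0.12, adjusted p = 0.042). The E2f8 call was lost without untransfected replicate 1 or 2 or mock replicate 2 (0.61 to 0.69), and the Rb1 call without untransfected replicate 2 or 3 or mock replicate 2 or 3 (-0.42 to -0.27). Without untransfected replicate 2 or mock replicate 2, 1 member was called, E2f2. In M1-like cells 0 of 10 members and 0% of all genes were called by edgeR and by DESeq2, with 0 members and 438 genes at an unadjusted p under 0.05 by edgeR. In M2-like cells 0 of 10 members were called by either tool, beside 1.77% of all genes, with 0 at an unadjusted p under 0.05. The difference between mock-treated and untransfected cells in the M1-like against M2-like comparison, tested as an interaction, was called for 0 of 10 members by either tool, beside 1.13% of all genes, with 0 members at an unadjusted p under 0.05.

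Likeness over condition means is given as a description, without a test. Genes whose condition means ran most like those of a member were listed by Pearson's r of log2 CPM among 11106 genes. For E2f1, over the 10 reprogramming conditions with no siRNA against it, these were Trabd (r = 0.94), Clk3 (0.93), Dnajc4 (0.93), Evi5l (0.92) and Srp9 (0.92). Over all 12 conditions, E2f8 ran most like Osbpl5 (0.98), Speg (0.98) and Mmp9 (0.98), which encodes a gelatinase. E2f4 ran most like Surf6 (0.98), Pogk (0.97) and Cdpf1 (0.97), E2f5 like Acap2 (0.98), Cers6 (0.96) and Zc3h7a (0.96), and Rb1 like Bag4 (0.96), Bet1 (0.95) and Zfp664 (0.94). E2f2 was nearest to Ptpn18 (0.89), Pctp (0.89) and Tubb4b (0.85), E2f6 to Slc16a10 (0.89), Dazap2 (0.87) and Urod (0.86), Tfdp1 to Ap4m1 (0.89), Gm25047 (0.88) and Tmc6 (0.86), and E2f3 to Gm6563 (0.76), Klhl12 (0.75) and Srek1 (0.75). E2f7 with its few reads was nearest to Fis1 (0.93), Anln (0.93) and Hjurp (0.93). Among the members themselves, r was between -0.81 for E2f4 with E2f7 and 0.73 for E2f7 with E2f8.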

How the data were processed

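RNA was sequenced in 54 libraries, as single reads of 50 bases (polarization) or paired reads of 150 bases (reprogramming). The authors trimmed reads with Trimmomatic, aligned them with TopHat to mm10 and deposited the raw counts that featureCounts gave for each gene. Tool versions, annotation and strand setting are not given in the sources used here.

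The members and gene lists were chosen with earlier results of these data known. Technical replicates of a mouse were summed. Symbols, exon lengths and coordinates came from GENCODE M21 (GRCm38, the same build as mm10) and promoter sequences from RefSeq. Counts were filtered (filterByExpr, minimum count 10, minimum total 15), TMM-normalized and tested with edgeR 4.0.16 (quasi-likelihood, two-sided, Benjamini-Hochberg), in 1 model for each experiment with 16110 and 14172 genes. "Called" means an adjusted p under 0.05. E2f7 did not pass the filter in the polarization experiment. A standard error is the log2 fold change divided by the square root of F. Intervals and floors of read counts cover counting error only. The test was checked on simulated counts. Named genes were all 10 members, and of each other list at most the 4 called genes with the largest log2 fold change in the E2f1 siRNA and the polarization M1-like against M2-like comparison, with pocket protein, cyclin and inhibitor genes where a result turned on them. Genes named as DESeq2 or mock-reference calls, the G1/S genes named for the combined pool, the lowest value of the G1/S list and those with a promoter match were named after their values were seen. Some listed genes are not reported here by name.

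Alternatives were RLE scaling, DESeq2 1.42.0, other filters, a replicate block, only the compared conditions, leaving out each sample, technical replicates kept apart and mock as reference. Total counts without TMM factors were added after seeing the data. Polarization replicates pair by mouse: samples of the same mouse deviated from their condition means with a median r of 0.25 over 9 pairs, against -0.14 between mice.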

Additional observations from a re-analysis of the deposited data

How the results depend on the processing

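Of 53 member calls, 20 lost their call in a fit without 1 sample, 11 in another setting and 24 in either. RLE scaling left each count of called members within 1.5 times, as did the fit without a filter and total counts. Members called in M2-like against M0 in the polarization experiment came to 5 with technical replicates kept apart (main 2) and to 0 to 3 without 1 sample. Those in untransfected M1-like against M2-like cells came to 3 with only the compared conditions (main 6) and to 3 to 7 without 1 sample. Without 1 sample the counts were 1 to 3 for mock against untransfected M0, 0 to 1 for the negative pool against mock, 0 to 1 for the Stat6 pool and 3 to 5 for the combined against the E2f1 pool. For the Stat6 pool 1 member, E2f3, was called with at least 10 counts in every sample, with DESeq2 and with the replicate block. In the reprogramming experiment the replicate numbers share only a number by their labels. Same-numbered samples deviated together with a median r of 0.18 (-0.25 to 0.63 over 198 pairs), and 34 of 36 samples lay closest to their own number. The replicate block moved no other count beyond 1.5 times and lost no member call. G1/S genes called after the E2f1 knockdown came to 1 with DESeq2, 1 with only the compared conditions and 3 with mock as reference (main 0). In M1-like against M2-like cells in the polarization experiment, total counts turned E2f1 to -0.22, called as lower (adjusted p = 0.034). E2f4 came to -0.0059 and was not called. E2f7 after the E2f1 knockdown ran from -0.10 (without E2f1 pool replicate 2) to 0.52 in the fits without 1 sample. Levels per kb by the longest transcript in place of merged exons changed the rank of 2 to 7 members in a condition. E2f4 stayed first and E2f7 last in all 15. The few reads of E2f7, and 13 to 23 reads of E2f2 in M1-like cells in the polarization experiment, limit those 2 genes. The cause of these changes was not tested.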
